A study of Mus musculus with 18 samples.

Results

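The 10 genes described here encode the core of the inflammasome and of pyroptosis, the inflammatory cell death it triggers. They are the rows of the deposited table whose symbol is Nlrp3, Nlrc4, Aim2, Mefv, Pycard, Nek7, Casp1, Casp4, Gsdmd or Txnip, 10 of the 56691 genes in the table. The gene list names them, so no measured value chose them. They were measured by RNA sequencing of whole liver from C57BL/6 mice of wild-type genotype, 6 libraries in each of 3 groups. IR-Ori mice underwent liver ischemia and reperfusion and received oridonin, IR mice underwent the same ischemia and reperfusion without it, and sham mice were anaesthetised and opened without clamping. In both IR groups hemostatic clips closed the portal triad for 1 h, which cut the blood supply of the median and left lobes, about 70% of the liver, and the tissue was then reperfused for 6 h. Oridonin is a plant diterpenoid, and the sources used here do not give its dose, route and timing, nor the age and sex of the mice. There was no sham group with oridonin, so the design holds oridonin only on top of ischemia and reperfusion. The labels do not say that each library came from a different animal, and the spread behind every p-value is therefore that of these libraries, which may be partly technical.

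An inflammasome is a protein platform that assembles in the cytosol when a sensor detects infection or damage. The sensors NLRP3, NLRC4, AIM2 and pyrin recruit caspase-1, mostly through the adaptor ASC, and caspase-1 then cuts the precursors of interleukin 1 beta and interleukin 18 and the pore-forming protein gasdermin D. Caspase-11, the product of mouse Casp4, binds bacterial lipopolysaccharide and cuts gasdermin D directly. Much of this regulation acts on proteins, by assembly and by cleavage, and transcript levels do not read it. NLRP3 needs the kinase NEK7 to assemble, and oridonin has been reported to bind NLRP3 covalently and to block its contact with NEK7. In liver, Kupffer cells and recruited monocytes and neutrophils are the usual carriers of NLRP3, while hepatocytes are known to express gasdermin D and TXNIP.

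The promoters of 4 members are shown because Nlrp3 and Mefv had the largest fold changes among the members and because Casp1 and Casp4 are neighbouring genes on chromosome 9, 1537 bases apart. Each window runs from 250 bases before to 50 bases after a transcription start, 5′ to 3′ on the strand of the gene, in RefSeq sequence of build GRCm38.p6. Capitals mark letters that fit a searched motif: the NF-kB decamer in Nlrp3, Casp4 and Mefv, and CACGTG in Casp1. Nlrp3 is at chr11:59541319-59541618 on the plus strand, Mefv at chr16:3718075-3718374 on the minus strand, Casp4 at chr9:5308599-5308898 and Casp1 at chr9:5298267-5298566, both on the plus strand.
Nlrp3: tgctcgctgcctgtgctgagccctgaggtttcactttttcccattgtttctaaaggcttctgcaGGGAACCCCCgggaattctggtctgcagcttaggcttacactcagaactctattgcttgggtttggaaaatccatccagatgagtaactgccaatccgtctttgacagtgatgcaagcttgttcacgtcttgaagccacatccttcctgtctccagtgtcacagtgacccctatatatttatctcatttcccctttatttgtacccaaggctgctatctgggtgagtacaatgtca
Mefv: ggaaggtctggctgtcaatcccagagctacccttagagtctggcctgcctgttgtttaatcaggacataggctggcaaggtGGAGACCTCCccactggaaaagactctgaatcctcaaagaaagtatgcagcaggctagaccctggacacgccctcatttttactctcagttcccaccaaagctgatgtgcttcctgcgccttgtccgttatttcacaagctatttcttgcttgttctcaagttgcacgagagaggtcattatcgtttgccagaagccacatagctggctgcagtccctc
Casp4: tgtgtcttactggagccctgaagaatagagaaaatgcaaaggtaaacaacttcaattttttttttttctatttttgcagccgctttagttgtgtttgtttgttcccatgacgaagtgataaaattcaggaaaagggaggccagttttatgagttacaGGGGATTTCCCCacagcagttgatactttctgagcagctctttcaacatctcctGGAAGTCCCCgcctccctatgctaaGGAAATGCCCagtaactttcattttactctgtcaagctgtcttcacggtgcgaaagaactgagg
Casp1: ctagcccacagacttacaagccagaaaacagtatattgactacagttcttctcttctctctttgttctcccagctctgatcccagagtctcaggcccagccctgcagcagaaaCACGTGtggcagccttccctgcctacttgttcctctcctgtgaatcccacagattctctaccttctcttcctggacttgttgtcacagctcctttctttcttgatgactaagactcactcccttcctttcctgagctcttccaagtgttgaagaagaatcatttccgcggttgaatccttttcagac
Of the 10 members, 9 had a promoter in the RefSeq table, with 11 windows in all because Nlrp3 and Casp4 each have a second start. NF-kB is a transcription factor that primes inflammasome genes for transcription. Its decamer, searched on both strands, occurred in 4 of the 9 members, namely Nlrp3, Casp4, Mefv and Aim2. The same decamer occurred in 26.8% of the 32851 promoters in the table, a share counted per window and not per gene. In the Nlrp3 window shown the match starts at position -186 from the start of the gene, in Mefv at position -169. The second Nlrp3 window held 0 matches of the decamer. Casp4 has matches starting at positions -93, -92 and -91, which overlap and share their letters, and further matches at -39 and -14. CACGTG, an E-box, was found in Casp1 alone among the members, at position -137, and in 7.15% of all promoters. GAGGAAGT, the core of a myeloid ETS motif, was found in Pycard and Aim2 and in 3.2% of all promoters. TGANTCA, the AP-1 motif, TTGCNNCAA, a C/EBP motif, and TATAAA were found in none of the 9 members, and in 7.81%, 2.08% and 13.6% of all promoters. All motifs were searched on both strands, and none of them overlaps another in the windows shown. These matches describe letters in a window and do not show that a factor binds there.

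The libraries held 12770586 to 16536186 counts in IR-Ori, 12449529 to 16625908 in IR and 12755980 to 19798188 in sham. The share of counts on mitochondrial genes varied widely within each group, 14.1% to 32.0% in IR-Ori, 6.52% to 42.9% in IR and 10.3% to 42.8% in sham. Whole liver gives a mixture of cells, and fewer cells of a type cannot be told apart from less RNA per cell. The labelled tissue matched its markers, since the 7 hepatocyte genes summed to 25280 to 38680 FPKM in IR-Ori, 21680 to 29990 in IR and 13460 to 45670 in sham.

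All 10 members had counts in all 18 libraries and passed the filter on low counts. Levels are given as FPKM, the counts scaled to the exonic length of the gene and to the library total, so that genes can be compared per length. Averaged over the 18 libraries, Txnip stood far above the rest at 55.2 FPKM, followed by Gsdmd at 8.95 FPKM and Nek7 at 5.88 FPKM. Casp4 averaged 1.65 FPKM, Casp1 1.33 FPKM, Aim2 0.885 FPKM and Mefv 0.843 FPKM. At the low end were Nlrc4 at 0.364 FPKM, Pycard at 0.277 FPKM and Nlrp3 at 0.274 FPKM. The steps from Txnip to Gsdmd and from Nek7 to Casp4 held in 18 of 18 libraries, and Casp1 exceeded Aim2 in 17. The remaining neighbours changed places between libraries. Gsdmd exceeded Nek7 in 14 libraries, Aim2 exceeded Mefv in 13, Casp4 exceeded Casp1 in 12, Nlrc4 exceeded Pycard in 12, Mefv exceeded Nlrc4 in 11 and Pycard exceeded Nlrp3 in 10. Among the 14595 genes tested, 95.4% had a lower mean FPKM than Txnip and 77.3% a lower one than Gsdmd, but only 7.97% were below Pycard and 7.85% below Nlrp3. The sensor and the adaptor of the NLRP3 inflammasome were thus among the least abundant transcripts that could be tested, while gasdermin D, their final effector, was well above the middle.

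**Figure D1:**
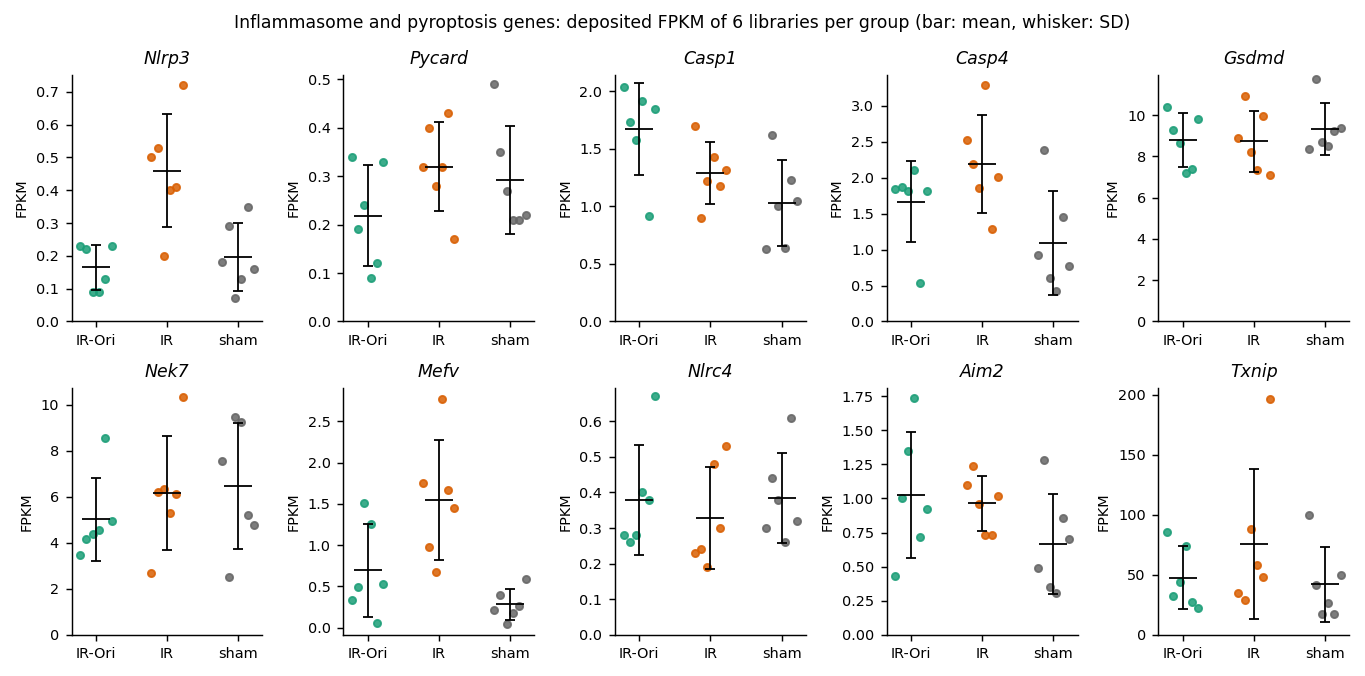
FPKM of the 10 members in each library, 1 panel per gene with its own linear axis, for IR-Ori, IR and sham (6 libraries each, points), with bars at the mean and SD. Mefv is the gene whose IR and sham points do not overlap, and Txnip has 1 IR library at 196.6 FPKM.

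IR was set against sham to see how these transcripts responded to clamping and reperfusion. Of the 10 members, 1 rose and 0 fell at an adjusted p under 0.05 in edgeR's quasi-likelihood test (7.89% of all 14595 genes were called), and that gene was Mefv. Without adjustment 3 members had a p under 0.05, Mefv, Nlrp3 and Casp4, all with higher levels in IR, beside 3428 of all genes. Of the 10 members 7 had a positive log2 fold change, and their median was 0.40, against 0.00 for all genes tested. DESeq2 called 2 members, Mefv and Nlrp3 (9.93% of the genes it tested), and limma on log2(FPKM + 1) called 1 of the 7 members that passed its filter (5.24% of its genes).

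IR-Ori was set against IR to see how they responded to oridonin on top of the injury. None of the 10 members passed edgeR's test (0 of 10, where 3.6% of all genes were called), and Nlrp3 was the 1 member with an unadjusted p under 0.05, beside 3532 of all genes. DESeq2 called 1 member, Nlrp3 (8.33% of the genes it tested). Limma, whose filter left out Nlrp3, called 0 of the members it tested (1.17% of its genes). No member was free of overlap between IR-Ori and IR, a separation that 0.391% of all genes showed with higher and 1.1% with lower values in IR-Ori. The median log2 fold change of the members was -0.30, against 0.00 for all genes, and 4 of 10 were positive.

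In IR-Ori against sham 0 members and 0 of all genes (0%) passed edgeR's test. Casp1 and Mefv, 2 members, had an unadjusted p under 0.05, both with higher levels in IR-Ori, beside 1460 of all genes. DESeq2 called 0 members and 25 genes (0.123%), and limma called 0 of the members past its filter and 0 genes (0%). IR-Ori and sham overlapped for each of the 10 members, while 0.171% of all genes were higher and 0.0343% lower in IR-Ori without overlap. The comparisons share their libraries, IR standing in both of the first and sham in the first and the last, so their values are not independent of each other.

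**Figure D2:**
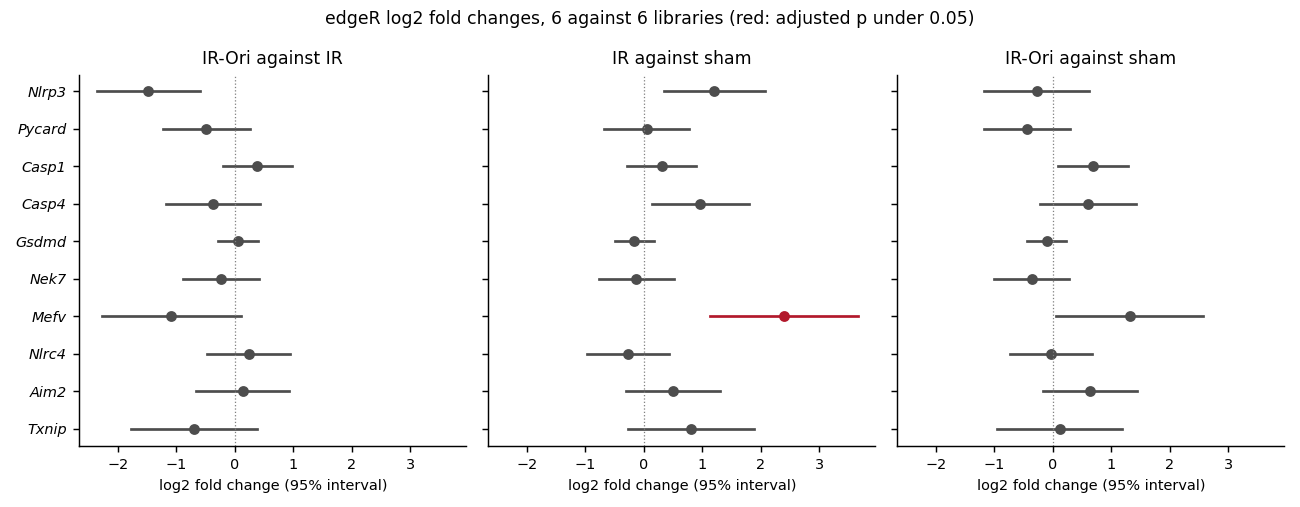
Log2 fold change of the 10 members with 95% confidence intervals from edgeR, 1 panel each for IR-Ori against IR, IR against sham and IR-Ori against sham, in red where the adjusted p was under 0.05. Mefv in IR against sham (2.39) is the 1 called value, and the intervals of Nlrp3 exclude 0 in IR-Ori against IR and in IR against sham, although its adjusted p stayed at 0.0538 and 0.0789.

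Nlrp3 (ENSMUSG00000032691, chromosome 11, 59432394 to 59457782, plus strand, build GRCm39) encodes the sensor that responds to ion fluxes, crystals and mitochondrial damage. It ranged over 0.09, 0.175 and 0.23 FPKM (lowest, median and highest) in IR-Ori, 0.2, 0.455 and 0.72 FPKM in IR, and 0.07, 0.17 and 0.35 FPKM in sham. Of the 6 IR libraries, 5 stood above the highest sham library and IR 3 did not, and 3 of the 6 IR-Ori libraries stood below the lowest IR library. The group means were 0.165 ± 0.0692 FPKM in IR-Ori, 0.46 ± 0.172 in IR and 0.197 ± 0.104 in sham (SD, n = 6 each). The log2 fold change was 1.20 ± 0.41 in IR against sham (SE, adjusted p = 0.0789, edgeR) and -1.48 ± 0.42 in IR-Ori against IR (adjusted p = 0.0538), neither past the threshold. The 95% interval of the second was -2.36 to -0.60. In a two-sided exact permutation test of the mean log2(FPKM + 1) over 6 and 6 libraries, p was 0.0108 for IR against sham and 0.00866 for IR-Ori against IR, before any adjustment over genes. IR-Ori and sham did not differ beyond their spread (log2 fold change -0.28 ± 0.43, adjusted p = 0.800).

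The Nlrp3 values rest on few reads, 5 to 13 counts per library in IR-Ori, 12 to 46 in IR and 6 to 20 in sham. Its call depended on the processing. DESeq2 gave an adjusted p of 0.0479 in IR against sham and 0.0168 in IR-Ori against IR. Leaving out IR 3 gave 1.35 (adjusted p = 0.0447) and -1.62 (adjusted p = 0.0268) in edgeR, and the mitochondrial share as a covariate gave 1.33 (adjusted p = 0.0335) and -1.69 (adjusted p = 0.0441). Most settings gave no call. Of 12 edgeR fits without 1 library, 1 was called in each comparison (adjusted p up to 0.171 and 0.134). Of the other settings, 2 of 10 were called in IR against sham and 2 of 9 in IR-Ori against IR.

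The genes whose log2 CPM (counts scaled to library size) followed Nlrp3 most closely over the 18 libraries were the chemokine Ccl4 (Pearson r = 0.858), the interleukin 1 receptor-associated kinase Irak2 (0.849) and 1700037H04Rik (0.833). These libraries share the group differences, and after the group means were removed the r were 0.712, 0.865 and 0.680.

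Mefv (ENSMUSG00000022534, chromosome 16, 3525082 to 3535961, minus strand) encodes pyrin, a sensor of bacterial toxins, known mainly from neutrophils and monocytes. It ranged over 0.06, 0.51 and 1.51 FPKM in IR-Ori, 0.68, 1.56 and 2.77 FPKM in IR, and 0.05, 0.24 and 0.59 FPKM in sham. Every IR library stood above every sham library, the only such separation among the 10 members (2.04% of all genes were higher in IR without overlap and 1.13% lower), and 4 of the 6 IR-Ori libraries stood below the lowest IR library. The means were 0.697 ± 0.564 FPKM in IR-Ori, 1.55 ± 0.726 in IR and 0.282 ± 0.187 in sham (SD, n = 6 each). Mefv rose in IR against sham by 2.39 ± 0.61 on the log2 scale (SE, adjusted p = 0.0208, edgeR), and the exact permutation p was 0.002165, the smallest that 6 against 6 libraries allow.

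In IR-Ori against IR the log2 fold change of Mefv was -1.08 ± 0.57 (adjusted p = 0.248, 95% interval -2.27 to 0.11), and in IR-Ori against sham it was 1.31 ± 0.60 (adjusted p = 0.498). The IR-Ori libraries had 81 counts in IR-Ori 3, 57 in IR-Ori 4 and 3 in IR-Ori 5. The rise in IR against sham lost its call without IR 4, which held the highest Mefv value (2.18, adjusted p = 0.0567), and it was 1.47 (adjusted p = 0.371) among the libraries with a mitochondrial share of at least 15%.

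Markers of neutrophils were also higher in IR. The 10 neutrophil markers summed to 7.73 to 64.8 FPKM in IR-Ori, 69.5 to 315.6 FPKM in IR and 4.03 to 27.1 FPKM in sham, so that every IR library exceeded every other library. Of the 9 neutrophil markers tested, edgeR called 9 higher in IR against sham (5.52% of all genes rose) and 2 lower in IR-Ori against IR (3.01% of all genes fell). In IR-Ori against IR 8 had an unadjusted p under 0.05, beside 3532 of all genes, and the median log2 fold change of the 9 was -1.86. DESeq2 called 6 there (8.33% of its genes) and limma 4 (1.17% of its genes). In IR against sham DESeq2 called 9 (9.93% of its genes) and limma 8 (5.24%). In IR-Ori against sham edgeR, DESeq2 and limma called 0. There 7 had an unadjusted p under 0.05, beside 1460 of all genes, and the median log2 fold change of the 9 was 1.55. S100a9, a calcium-binding alarmin of neutrophils, averaged 16.1 ± 10.4 FPKM in IR-Ori, 71.7 ± 50.9 in IR and 5.69 ± 4.63 in sham. IR 4 held both the highest neutrophil sum, 315.6 FPKM, and the highest Mefv level, 2.77 FPKM. Within groups the order of the libraries was shared in part between the marker sum and Mefv. Among sham libraries, sham 3 was lowest in both (4.03 and 0.05 FPKM) and sham 6 highest in both (27.1 and 0.59 FPKM). IR-Ori 5 was lowest of its group in both (7.73 and 0.06 FPKM). Other libraries changed places. IR-Ori 2 had the highest neutrophil sum of its group, 64.8 FPKM, with Mefv at 0.49 FPKM, IR-Ori 4 had a sum of 26.4 with Mefv at 1.26, and IR 6 had the lowest IR sum, 69.5, with Mefv at 1.45. Ly6g, a defining neutrophil gene, was at 0 in 10 of the 18 libraries, with 12 counts in all. The genes most like Mefv over the 18 libraries were Csf2rb (Pearson r = 0.947), a receptor chain for the myeloid growth factor GM-CSF, its near-identical paralog Csf2rb2 (0.927), whose reads may be shared with it, and Adam8 (0.915), a metalloprotease of leukocytes. After the group means were removed these r were 0.897, 0.857 and 0.837.

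The 9 monocyte and recruited macrophage markers summed to 10.8 to 25.8 FPKM in IR-Ori, 25.7 to 106.6 in IR and 7.07 to 27.4 in sham. Of the 8 tested, edgeR called 7 higher in IR against sham, where 5.52% of all genes rose. In IR-Ori against IR it called 7 lower, where 3.01% of all genes fell. DESeq2 called 8 in each of these comparisons (9.93% and 8.33% of its genes). Limma, whose filter fewer of them passed, called 2 in IR against sham (5.24% of its genes) and 1 in IR-Ori against IR (1.17%). How many neutrophil and monocyte markers were called thus depended on the tool. Lyz2 averaged 11.3 ± 6.34 FPKM in IR-Ori, 35.5 ± 16.1 in IR and 16.25 ± 7.09 in sham, and Plac8 4.02 ± 1.52, 7.59 ± 2.71 and 2.765 ± 0.987 FPKM. The contrast was larger for Chil3, a lectin of recruited myeloid cells, at 0.422 ± 0.113 FPKM in IR-Ori, 11.3 ± 9.53 in IR and 0.392 ± 0.260 in sham. Ly6c2, a defining gene of inflammatory monocytes, was at 0 in 3 libraries. Of the 11 markers of Kupffer cells, the resident macrophages, 0 were called by edgeR in either comparison (7.89% and 3.6% of all genes). In IR against sham 0 had an unadjusted p under 0.05 and DESeq2 and limma called 0, and in IR-Ori against IR 2 had an unadjusted p under 0.05, DESeq2 called 1 and limma 0. Their sums overlapped at 64.6 to 102.5 FPKM in IR-Ori, 58.9 to 125.5 in IR and 48.9 to 118.5 in sham. The part of neutrophils and monocytes in the levels of Nlrp3, Mefv and the cytokines was not tested.

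**Figure D3:**
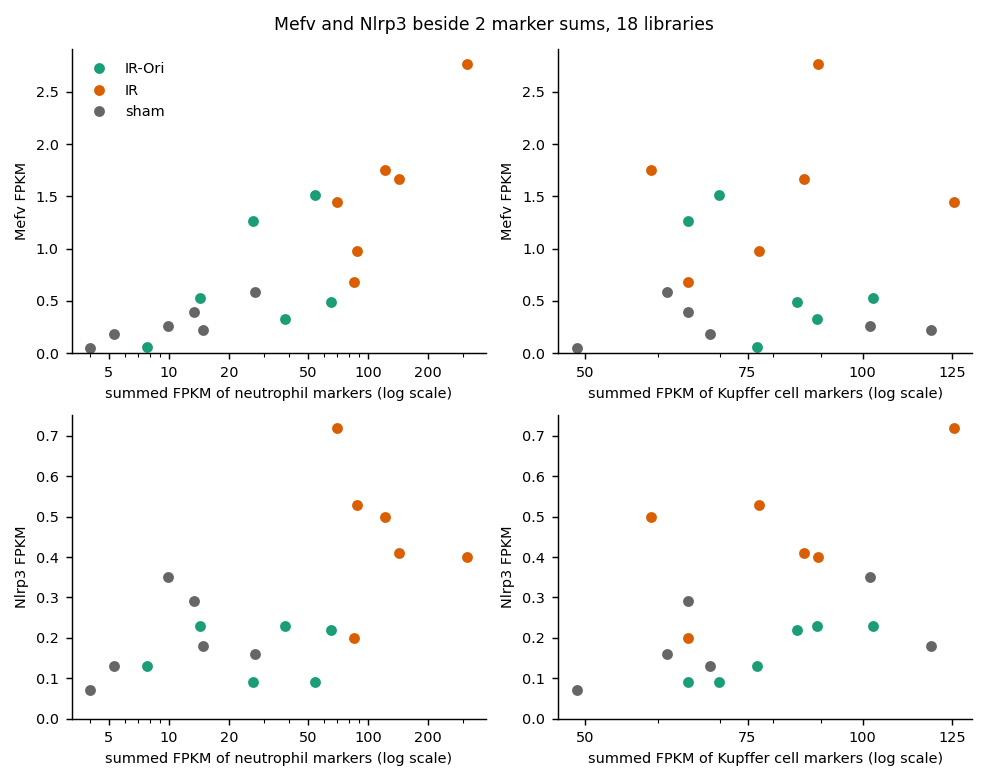
Mefv and Nlrp3 FPKM (linear axes) of each library against its summed FPKM of neutrophil markers and of Kupffer cell markers (log axes), for IR-Ori, IR and sham. The 6 IR libraries lie to the right of all others on the neutrophil axis (69.5 to 315.6 FPKM) and mix with the other groups on the Kupffer cell axis.

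Nlrc4 and Aim2, the other sensors among the members, did not pass in any comparison. Nlrc4 (ENSMUSG00000039193, chromosome 17, 74732433 to 74766137, minus strand), which detects bacterial flagellin and secretion systems through NAIP proteins, ranged over 0.26, 0.33 and 0.67 FPKM in IR-Ori, 0.19, 0.27 and 0.53 in IR, and 0.26, 0.35 and 0.61 in sham. The 3 groups overlapped. Its log2 fold change was -0.27 ± 0.34 in IR against sham (adjusted p = 0.674) and 0.24 ± 0.34 in IR-Ori against IR (adjusted p = 0.680). Aim2 (ENSMUSG00000037860, chromosome 1, 173178445 to 173293606, plus strand), which binds double-stranded DNA in the cytosol, ranged over 0.43, 0.96 and 1.74 FPKM in IR-Ori, 0.73, 0.99 and 1.24 in IR, and 0.31, 0.595 and 1.28 in sham. All 6 IR libraries stood above the sham median, but the highest sham library exceeded all of them. The log2 fold change of Aim2 was 0.50 ± 0.38 in IR against sham (adjusted p = 0.462) and 0.13 ± 0.38 in IR-Ori against IR (adjusted p = 0.852). Aim2 overlaps Cadm3 on the opposite strand over 16817 bases of their gene spans, introns included. The strand setting of the counting is not given, so reads cannot be told apart where exons of both genes coincide. The overlap of exons was not examined. Cadm3 had 434 counts in all libraries together, Aim2 836.

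Pycard (ENSMUSG00000030793, chromosome 7, 127588880 to 127593039, minus strand) encodes ASC, the adaptor that joins sensors to caspase-1. It ranged over 0.09, 0.215 and 0.34 FPKM in IR-Ori, 0.17, 0.32 and 0.43 in IR, and 0.21, 0.245 and 0.49 in sham, and the groups overlapped. Its difference was 0.05 ± 0.35 on the log2 scale in IR against sham (adjusted p = 0.951), with a 95% interval of -0.67 to 0.77, and -0.48 ± 0.35 in IR-Ori against IR (adjusted p = 0.398). Pycard had 5 to 34 counts per library. The genes most like Pycard were Nck2 (Pearson r = 0.779), an adaptor of tyrosine kinase signalling, Gm19426 (0.717) and Lyl1 (0.714), a transcription factor of blood cells, and after the group means were removed r was 0.721, 0.656 and 0.732.

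Nek7 (ENSMUSG00000026393, chromosome 1, 138410613 to 138547879, minus strand), the kinase that NLRP3 binds to assemble, was among the more abundant members. It ranged over 3.47, 4.48 and 8.58 FPKM in IR-Ori, 2.67, 6.18 and 10.4 in IR, and 2.52, 6.40 and 9.46 in sham, with 237 to 1381 counts per library. The groups overlapped fully. The log2 fold change of Nek7 was -0.12 ± 0.31 in IR against sham (adjusted p = 0.851) and -0.24 ± 0.31 in IR-Ori against IR (adjusted p = 0.650). The last 95% interval ran from -0.89 to 0.41. The spread within groups was larger than any difference between group means.

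Casp1 (ENSMUSG00000025888, chromosome 9, 5298508 to 5307290, plus strand) encodes caspase-1, the protease of the inflammasome. It ranged over 0.92, 1.79 and 2.04 FPKM in IR-Ori, 0.90, 1.27 and 1.70 in IR, and 0.63, 1.03 and 1.62 in sham. Of the 6 IR-Ori libraries, 4 stood above the highest IR library and 4 above the highest sham library, and IR-Ori 5 was the lowest of its group. Casp1 averaged 1.67 ± 0.402 FPKM in IR-Ori, 1.29 ± 0.268 in IR and 1.03 ± 0.375 in sham. The log2 fold change was 0.38 ± 0.28 in IR-Ori against IR (adjusted p = 0.404), 0.69 ± 0.29 in IR-Ori against sham (adjusted p = 0.498) and 0.30 ± 0.29 in IR against sham (adjusted p = 0.561). The mean of Casp1 was highest in IR-Ori, while those of Nlrp3 and Mefv were highest in IR, but no difference of Casp1 passed the threshold. Over 11 other processing settings its value in IR-Ori against IR ran from 0.13 to 0.47, and 0 were called. The mean mitochondrial share was also highest in IR-Ori, at 27.1%, against 19.2% in IR and 21.9% in sham. Within groups Casp1 was higher by 0.32 per 10 percentage points of that share (adjusted p = 0.00433, edgeR). How much of the group difference goes with the share was not tested. The exact permutation p for IR-Ori against sham was 0.0303, unadjusted over the 30 comparisons of members.

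Casp4 (ENSMUSG00000033538, chromosome 9, 5308828 to 5336783, plus strand) encodes caspase-11 in the mouse. It ranged over 0.54, 1.83 and 2.11 FPKM in IR-Ori, 1.28, 2.10 and 3.29 in IR, and 0.42, 0.85 and 2.39 in sham. Every IR library stood above the sham median, but sham 2, at 2.39 FPKM, stood above 4 of the 6 IR libraries. Means were 1.67 ± 0.562 FPKM in IR-Ori, 2.19 ± 0.677 in IR and 1.09 ± 0.726 in sham. For Casp4 the log2 fold change was 0.97 ± 0.39 in IR against sham (adjusted p = 0.138) and -0.37 ± 0.39 in IR-Ori against IR (adjusted p = 0.565). Without sham 2 the value in IR against sham was 1.32 (adjusted p = 0.0361), and with the mitochondrial share as a covariate it was 1.25 (adjusted p = 0.0126). No other setting called Casp4 in IR against sham. The calls were 1 of 12 edgeR fits without 1 library (adjusted p up to 0.269) and 1 of 12 other settings.

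Gsdmd (ENSMUSG00000022575, chromosome 15, 75734176 to 75739257, plus strand) encodes gasdermin D, whose cut fragment forms the membrane pores of pyroptosis. It was the steadiest member, at 7.18, 8.96 and 10.4 FPKM in IR-Ori, 7.11, 8.56 and 10.9 in IR, and 8.35, 8.97 and 11.7 in sham. The groups overlapped, and the means were 8.79 ± 1.30 FPKM in IR-Ori, 8.74 ± 1.49 in IR and 9.32 ± 1.26 in sham. For Gsdmd the log2 fold change was -0.16 ± 0.16 in IR against sham (adjusted p = 0.591, 95% interval -0.49 to 0.17) and 0.06 ± 0.16 in IR-Ori against IR (adjusted p = 0.853, 95% interval -0.28 to 0.39). These were the narrowest intervals of the members, at 217 to 431 counts per library.

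Txnip (ENSMUSG00000038393, chromosome 3, 96465273 to 96469199, plus strand) encodes a thioredoxin-binding protein that is induced by glucose and has been reported to bind NLRP3 under oxidative stress. It ranged over 22.4, 38.3 and 86.1 FPKM in IR-Ori, 28.9, 53.2 and 196.6 in IR, and 17.3, 34.0 and 100.2 in sham. The groups overlapped, and IR 6 alone lay above all other libraries. Means were 47.7 ± 26.3 FPKM in IR-Ori, 75.8 ± 62.8 in IR and 42.1 ± 31.3 in sham. The log2 fold change was 0.81 ± 0.52 in IR against sham (adjusted p = 0.363; 0.17 without IR 6) and -0.69 ± 0.52 in IR-Ori against IR (adjusted p = 0.410; -0.05 without IR 6). Within groups Txnip varied several-fold, at 754 to 9626 counts per library, counts at which counting error is small.

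The whole span of Txnip, 3927 bases with introns, is overlapped by the span of Gm15441 on the opposite strand. Gm15441 had 4460 counts in all libraries against 47550 for Txnip. Where exons of the pair coincide, reads cannot be told apart without the strand setting, and the overlap of exons was not examined. Gm15441 averaged 5.40 ± 6.19 FPKM in IR-Ori, 15.03 ± 17.8 in IR and 4.76 ± 5.22 in sham. The genes most like Txnip were Btbd19 (Pearson r = 0.879), Rgs16 (0.864), a regulator of G-protein signalling, and Stat5b (0.841), a transcription factor of growth hormone signalling, with r of 0.889, 0.893 and 0.846 after the group means were removed.

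The mitochondrial share was set beside each member within the groups, as a term fitted together with the group. With 10 percentage points more mitochondrial counts, Casp4 was higher by 0.46 on the log2 scale (adjusted p = 0.00398, edgeR), Aim2 by 0.38 (adjusted p = 0.0193), Casp1 by 0.32 (adjusted p = 0.00433) and Gsdmd by 0.17 (adjusted p = 0.00393). Nek7 fell by 0.45 (adjusted p = 9.51e-05). So 5 of the 10 members were called, 4 higher (19.9% of all genes tested) and 1 lower (23% of them), where 42.9% of all genes were called, and the members' share is near that background. The calls of Casp1, Casp4, Gsdmd and Nek7 held without any 1 of the 18 libraries, and that of Aim2 was lost without sham 2 (adjusted p = 0.0970). Nlrp3 (0.23, adjusted p = 0.222), Mefv (0.36, adjusted p = 0.217), Pycard, Nlrc4 and Txnip did not pass. What the share itself reflects was not tested.

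The IR and sham groups each held 3 libraries with a share under 15% and 3 above it, so IR could be set against sham on either side. The fit from 15% up also held 5 libraries of IR-Ori and the fit under 15% held none, so their adjusted p are not matched. Mefv differed by 3.59 on the log2 scale under 15% (adjusted p = 0.0104, edgeR) and by 1.47 from 15% up (adjusted p = 0.371). Nlrp3 differed by 1.93 (adjusted p = 0.0585) and 0.61 (adjusted p = 0.652) on the same sides, and Casp4 by 1.65 (adjusted p = 0.0622) and 0.50 (adjusted p = 0.556). All 3 genes had positive values on both sides, larger under 15%, and whether the sides differ was not tested. In IR-Ori, where 5 libraries were at 15% or more, Nlrp3 differed from IR on that side by -1.29 (adjusted p = 0.446).

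**Figure D4:**
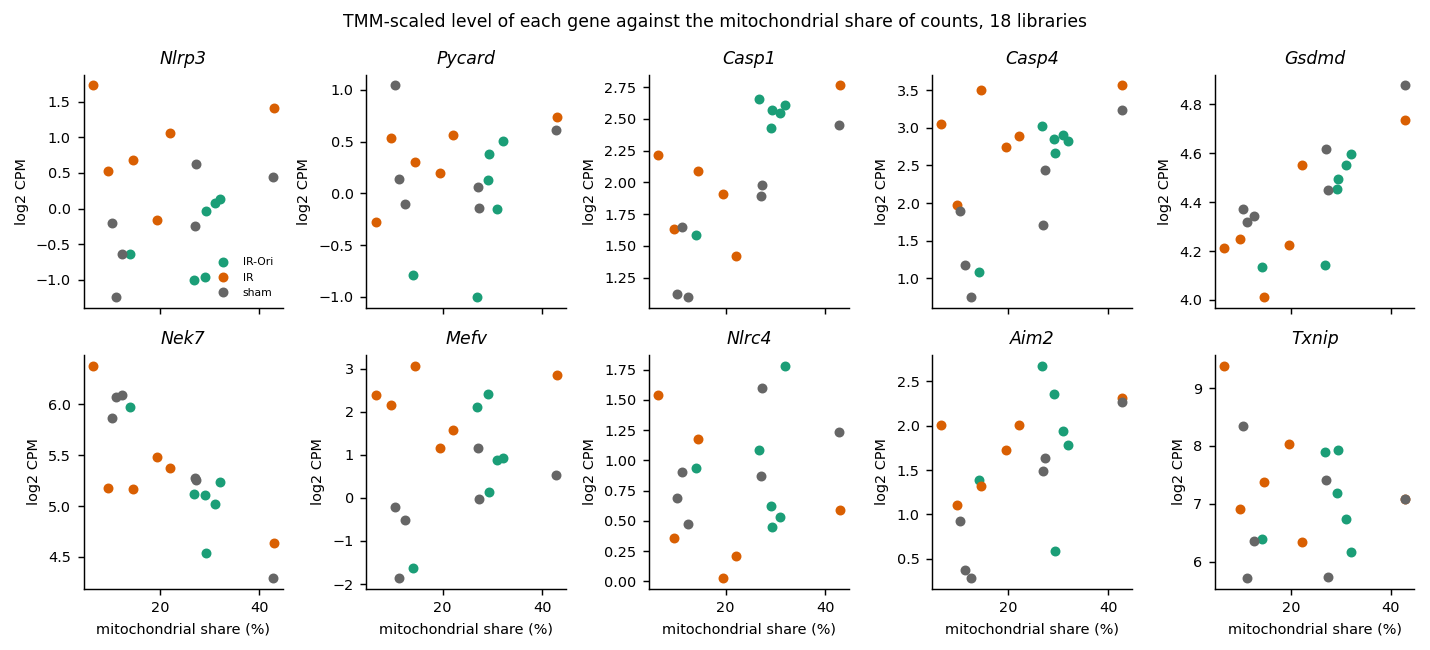
Log2 CPM of each of the 10 members in the 18 libraries (points) against the percentage of counts on mitochondrial genes, for IR-Ori, IR and sham. Nek7 tends to be lower and Casp1, Casp4, Gsdmd and Aim2 higher in libraries with a larger share, while IR libraries of Nlrp3 and Mefv lie high at both ends.

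Beyond the members, 55 genes of the same pathways were grouped in 7 lists, of which 53 were in the table and 42 were tested. Among them the genes past the threshold were Il1b, Il1rn, Clic4, Tnfaip3, Txnrd1 and Arrdc4. In IR against sham 5 of the 42 rose (5.52% of all genes rose) and 0 fell (2.36% of all genes fell), and in IR-Ori against IR 0 rose and 5 fell (3.01% of all genes fell). In IR-Ori against sham 0 passed edgeR's test and 3 had an unadjusted p under 0.05, beside 1460 of all genes. DESeq2 and limma called 0 there (0.123% and 0% of their genes). In IR-Ori against IR DESeq2 called 8 of the pathway genes (8.33% of its genes) and limma 1 (1.17%). In IR against sham they called 10 (9.93%) and 4 (5.24%). At an unadjusted p under 0.05 there were 15 in IR against sham and 11 in IR-Ori against IR. Of all 14595 genes 3428 and 3532 had such a p. The filter of limma left some of the 42 untested, Tnfaip3 among them. The lists were drawn up with results of these data known, so their counts are a description. The median log2 fold change of the 42 was 0.44, -0.22 and 0.08 in IR against sham, IR-Ori against IR and IR-Ori against sham, where all genes had 0.00, 0.00 and -0.01.

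**Figure D5:**
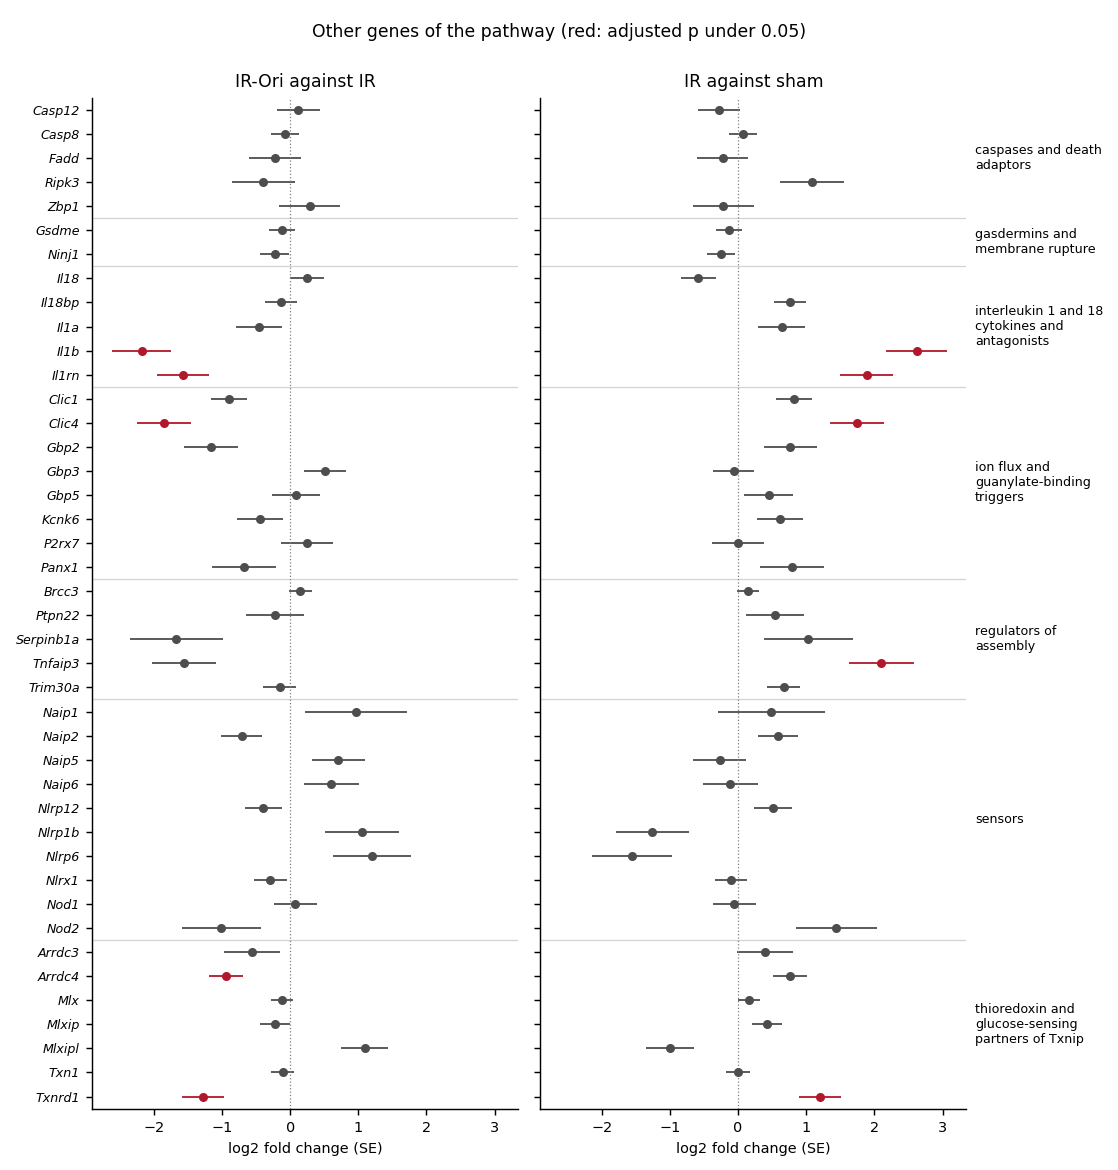
Log2 fold change of each tested pathway gene outside the members, by list, for IR-Ori against IR and IR against sham, with lines of 1 SE to each side and red where the adjusted p was under 0.05. The called genes of IR-Ori against IR all lie below 0 and those of IR against sham all lie above 0.

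Of the cytokines that caspase-1 processes, Il1b changed in both comparisons and Il18 did not pass in either. Il1b, the precursor of interleukin 1 beta, averaged 1.89 ± 0.709 FPKM in IR-Ori, 8.59 ± 4.96 in IR and 1.40 ± 0.710 in sham (SD, n = 6 each). Every IR library, at 4.41 to 15.6 FPKM, stood above every IR-Ori library, at 0.78 to 2.98, and above every sham library, at 0.45 to 2.44. It rose in IR against sham by 2.62 ± 0.45 on the log2 scale (SE, adjusted p = 0.00216, edgeR) and fell in IR-Ori against IR by 2.18 ± 0.44 (adjusted p = 0.0117), and both calls held without any 1 library. Il1rn, the interleukin 1 receptor antagonist, also changed in both, at 1.04 ± 0.348 FPKM in IR-Ori, 3.27 ± 2.07 in IR and 0.845 ± 0.436 in sham. Its log2 fold change was 1.89 ± 0.39 in IR against sham (adjusted p = 0.00668) and -1.57 ± 0.38 in IR-Ori against IR (adjusted p = 0.0293). The call in IR-Ori against IR was lost without any of IR 4, IR 5, IR-Ori 1, IR-Ori 2 and IR-Ori 6 (adjusted p up to 0.107), by limma (adjusted p = 0.0632) and with only the groups compared (0.0591), and held in 6 of 11 other settings. Il18, the precursor of interleukin 18, averaged 9.26 ± 0.904 FPKM in IR-Ori, 8.06 ± 3.12 in IR and 11.6 ± 4.62 in sham, and its log2 fold change was -0.58 ± 0.25 in IR against sham (adjusted p = 0.164). Il18bp, an antagonist of interleukin 18, averaged 3.92 ± 0.890 FPKM in IR-Ori, 4.47 ± 1.45 in IR and 2.50 ± 0.646 in sham. Its adjusted p in IR against sham was 0.0552 by edgeR, 0.0375 by DESeq2 and 0.0475 by limma. In IR-Ori against IR it was 0.744, 0.802 and 0.657. Of the 5 genes of this list edgeR called 2 higher in IR against sham, where 5.52% of all genes rose. It called the same 2 lower in IR-Ori against IR, where 3.01% of all genes fell. DESeq2 called 3 and 2 in these comparisons (9.93% and 8.33% of its genes), and limma 3 and 1 (5.24% and 1.17%).

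Among 8 genes of ion flux and guanylate-binding triggers, Clic4, a chloride channel protein, was the 1 gene called by edgeR, and DESeq2 also called its relative Clic1 (adjusted p = 0.0391 in IR against sham and 0.0272 in IR-Ori against IR, against 0.0589 and 0.0593 by edgeR). It averaged 4.83 ± 0.831 FPKM in IR-Ori, 19.3 ± 17.3 in IR and 5.19 ± 2.01 in sham, and its log2 fold change was 1.75 ± 0.40 in IR against sham (adjusted p = 0.0121) and -1.85 ± 0.40 in IR-Ori against IR (adjusted p = 0.0164; 0.0505 without IR-Ori 1). Limma did not call Clic4 in IR-Ori against IR (adjusted p = 0.0719), and over the other processing settings the call held in 9 of 12 in IR against sham and 6 of 11 in IR-Ori against IR. Of 5 tested regulators of assembly, Tnfaip3, which encodes the NF-kB inhibitor A20, rose in IR against sham by 2.10 ± 0.48 (adjusted p = 0.0124), at 0.487 ± 0.304 FPKM in IR-Ori, 1.56 ± 0.963 in IR and 0.338 ± 0.193 in sham. For Tnfaip3 the log2 fold change in IR-Ori against IR was -1.56 ± 0.47 (adjusted p = 0.0644, and 0.0196 by DESeq2).

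Of the 7 partners of Txnip in thioredoxin and glucose sensing, Txnrd1, the thioredoxin reductase, averaged 19.2 ± 2.86 FPKM in IR-Ori, 50.7 ± 35.3 in IR and 20.3 ± 6.41 in sham. It rose in IR against sham (1.20 ± 0.31, adjusted p = 0.0216) and fell in IR-Ori against IR (-1.28 ± 0.31, adjusted p = 0.0273). Arrdc4, an arrestin-domain relative of Txnip, fell in IR-Ori against IR (-0.94 ± 0.25, adjusted p = 0.0422), at 1.96 ± 0.383 FPKM in IR-Ori, 3.85 ± 1.36 in IR and 2.195 ± 0.643 in sham. The IR-Ori against IR calls of Txnrd1 and Arrdc4 were each lost without any of IR 4, IR 5, IR 6, IR-Ori 1, IR-Ori 2, IR-Ori 3, IR-Ori 4 and IR-Ori 6 (adjusted p up to 0.0771 and 0.114). The IR against sham call of Txnrd1 was lost without any of sham 1, sham 5, sham 6 and IR 5 (adjusted p up to 0.0692). Limma called neither gene (adjusted p = 0.0602 and 0.0841 for Txnrd1 in IR against sham and IR-Ori against IR, and 0.0632 for Arrdc4 in IR-Ori against IR). Nor were the calls of either gene kept when only the groups compared were fitted (0.0561 and 0.0660 for Txnrd1, 0.0737 for Arrdc4). Over the other processing settings Txnrd1 was called in 7 of 12 in IR against sham and 4 of 11 in IR-Ori against IR, and Arrdc4 in 3 of 11 in IR-Ori against IR. Mlxipl, the glucose-responsive transcription factor ChREBP that drives Txnip transcription, did not pass in edgeR, at 95.5 ± 25.2 FPKM in IR-Ori, 44.8 ± 21.6 in IR and 87.6 ± 39.8 in sham. Its log2 fold change was -1.001 ± 0.35 in IR against sham (adjusted p = 0.0835) and 1.09 ± 0.35 in IR-Ori against IR (adjusted p = 0.0794), and DESeq2 called both (adjusted p = 0.0393 and 0.0268).

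Of 5 caspases and death adaptors 0 were called by edgeR, DESeq2 or limma in any comparison, with 1 at an unadjusted p under 0.05, Ripk3 in IR against sham. Ripk3, a kinase of necroptosis, averaged 1.01 ± 0.529 FPKM in IR-Ori, 1.39 ± 0.629 in IR and 0.632 ± 0.497 in sham, with a log2 fold change of 1.08 ± 0.47 in IR against sham (adjusted p = 0.166). Of the 12 other sensors 10 were tested. Of these edgeR called 0 in IR against sham, IR-Ori against IR and IR-Ori against sham (7.89%, 3.6% and 0% of all genes). At an unadjusted p under 0.05 there were 3, 1 and 0 in the same comparisons, beside 3428, 3532 and 1460 of all genes. DESeq2 called 1, 0 and 0 (9.93%, 8.33% and 0.123% of its genes). Limma called 0 in each, but its filter left out Nlrp1b, Naip1, Naip2, Naip6, Nod2 and Nlrx1. The most abundant of the 12 other sensors was Nlrp6, known from gut epithelium, at 95.4 ± 64.7 FPKM in IR-Ori, 39.2 ± 29.8 in IR and 118.8 ± 80.2 in sham. Its log2 fold change was -1.55 ± 0.58 in IR against sham (adjusted p = 0.107, and 0.0420 by DESeq2). Nod2, a sensor of bacterial cell wall, averaged 0.0817 ± 0.0578 FPKM in IR-Ori, 0.16 ± 0.0738 in IR and 0.06 ± 0.0529 in sham. Of 9 other gasdermin and membrane rupture genes only Gsdme and Ninj1 had enough counts to be tested, and edgeR, DESeq2 and limma called 0 in each comparison, with 1 at an unadjusted p under 0.05, in IR-Ori against sham. Ninj1, which ruptures the membrane of dying cells, averaged 25.5 ± 8.01 FPKM in IR-Ori, 31.2 ± 5.97 in IR and 35.3 ± 10.7 in sham, and Gsdme averaged 1.27 ± 0.333, 1.47 ± 0.331 and 1.52 ± 0.383 FPKM in the same groups.

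The pathway calls were also refitted on either side of a mitochondrial share of 15%, which leaves fewer libraries in each group. Among the libraries with a share of at least 15%, 3 of IR and 3 of sham, none of the calls in IR against sham remained. Il1b kept its size there, 2.52 (adjusted p = 0.0794, edgeR), and Il1rn was at 1.99 (adjusted p = 0.148), while Clic4 was at 0.97, Tnfaip3 at 0.61 and Txnrd1 at 0.47. The fit under 15% held as many libraries of IR and sham but none of IR-Ori, which the fit from 15% up included. The adjusted p of the sides are therefore not matched. Under 15%, Il1b was at 2.71 (adjusted p = 0.0308), Clic4 at 2.02, Tnfaip3 at 3.35 and Txnrd1 at 1.60, all called, and Il1rn at 1.80 (adjusted p = 0.0585). In IR-Ori against IR from 15% up, Il1b was at -2.19 (adjusted p = 0.0603), Il1rn at -1.23, Arrdc4 at -0.60, Clic4 at -0.59 and Txnrd1 at -0.48, and none was called. Il1b and Il1rn had similar values on both sides of the share in IR against sham, and the difference between the sides was not tested.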

How the data were processed

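Total RNA of 18 mouse liver libraries was sequenced, 6 each for IR-Ori, IR and sham. The tools listed in the submitters' processing notes are cutadapt 1.9.1, HISAT2 2.2.1 and DESeq2 (no version), with genome build GRCm39. The sources used here do not give the counting tool, its strand setting or the annotation release. The authors deposited whole-number counts per gene, with no scaling, and FPKM beside them. Dividing the counts by exonic size and library total returned 100% of the FPKM within 0.0051, so the totals include mitochondrial counts, and sizes cover all exons the table assigns to a gene. No sample columns were identical.

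The counts of all 18 libraries were fitted with edgeR 4.0.16 in R 4.3.3 (filterByExpr by group, minimum count 10 and total 15, TMM, quasi-likelihood F test, two-sided). Benjamini-Hochberg adjustment ran over the 14595 genes tested, with a threshold of 0.05. The script was tested on simulated counts. DESeq2 1.42.0, limma 3.58.1 on log2(FPKM + 1) with FPKM of at least 1 in 6 libraries, other filters, pseudocounts and covariates, and leaving out each library were the alternatives. Likeness used log2 CPM with a prior count of 2. Exact permutation tests over 6 against 6 libraries (924 splits) were run in SciPy 1.17.1 on log2(FPKM + 1). The common biological coefficient of variation was 0.398 with 6 libraries a group, and Nlrp3 and Pycard had the lowest mean levels of the members.

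All 10 members are named. Of the pathway lists, genes past the threshold in any comparison are named, and otherwise up to 2 per list with the smallest p, and of the marker lists up to 3 with the highest FPKM. Il18, Il18bp, Mlxipl, Chil3, Ly6g and Ly6c2 were added after their values were seen. In the lists, 2 genes are not reported here and are left out of their counts. The members and lists were chosen with earlier results of these data known. Gene positions are those of the table, and promoters were matched by symbol to RefSeq sequence of another build, GRCm38.p6.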

Additional observations from a re-analysis of the deposited data

Results flagged for a closer look

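In 5 of the 30 sets of 6 libraries examined (10 genes in 3 groups), 1 library lay apart from the other libraries of its group. The gap exceeded the 95% critical value of Dixon's test, where chance gives about 1 in 20 for independent, normally distributed sets. The sets here share libraries and the FPKM were not put on a log scale, so the 5 cannot be set against that rate. In IR-Ori 5, Casp4 was lowest of its group at 0.54 FPKM and Nek7 was highest at 8.58 FPKM. That library had the lowest mitochondrial share of the IR-Ori group, 14.1%, and the other 5 had 26.8% or more. Gsdmd was highest of its group in sham 2, at 11.74 FPKM, the sham library with the highest mitochondrial share, 42.8%. Txnip was highest in IR 6, at 196.6 FPKM, the IR library with the lowest share, 6.52%. Nlrc4 was highest in IR-Ori 6, at 0.67 FPKM. The part of the mitochondrial share in these values was not tested.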

How the results depend on the processing

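Of 322 values of the members under settings other than leaving out a library, 304 kept their direction and their side of the threshold, 2 lost a call, 5 gained one and 11 changed sign. Of 198 such values of the called pathway genes, 153 kept both, 40 lost a call, 2 gained one and 3 changed sign, and without 1 library 26 of 216 lost a call. Members called in IR against sham numbered 1, and 3 with the mitochondrial share as a covariate, 2 with DESeq2, 0 with the replicate block, 0 in libraries with a share of at least 15%, and 0 to 2 without 1 library. In IR-Ori against IR they numbered 0, and 1 with the covariate, 1 with DESeq2 and 0 to 1 without 1 library. Genes called in IR against sham numbered 1151, and 1848 with DESeq2, 594, 367 and 602 with limma (pseudocount 1, no filter, pseudocount 0.1), 1875 with the covariate, 644 with the replicate block, 14 in libraries with a share of at least 15% and 581 to 1560 without 1 library. In IR-Ori against IR they numbered 526, and 1362 with DESeq2, 133, 68 and 104 with the same limma settings, 172 with only those groups, 290 with the covariate, 163 with the replicate block, 15 in libraries with a share of at least 15% and 152 to 1056 without 1 library. In IR-Ori against sham DESeq2 called 25. The cause of these changes was not tested. Libraries with a share under 15% could not be compared for IR-Ori, which had 1. The replicate block gave Mefv 2.40 in IR against sham (adjusted p = 0.0532), and Clic4 in both comparisons and Il1b, Txnrd1 and Arrdc4 in IR-Ori against IR lost their calls too (adjusted p up to 0.0597). Replicate numbers are not stated to mark shared animals, and deviations of same-numbered libraries correlated from -0.44 to 0.42, 6 of 18 pairs above 0.1 and 4 best with their own number. Between IR-Ori and IR these correlations ran from 0.012 to 0.42. They ran from -0.44 to 0.34 between IR and sham and from -0.36 to 0.30 between IR-Ori and sham.

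Signs changed only in values that were not called, named here with each setting. With the covariate IR-Ori against IR gave Aim2 -0.15, Gsdmd -0.072 and Nek7 0.13, and IR-Ori against sham gave Clic4 0.24 and Txnrd1 0.052. With limma and pseudocount 0.1 Aim2 was -0.0026 in IR-Ori against IR. In libraries with a share of at least 15%, IR against sham gave Casp1 -0.025 and Nek7 0.19, IR-Ori against IR gave Gsdmd -0.039 and Txnip 0.044, and IR-Ori against sham gave Nek7 0.025 and Clic4 0.38. Under 15%, IR against sham gave Pycard -0.25 and Nlrc4 0.41, and Mefv 3.59 (adjusted p = 0.0104). Without 1 library Pycard ran from -0.081 to 0.23 in IR against sham. In IR-Ori against IR Nek7 ran from -0.45 to 0.040 and Aim2 from -0.062 to 0.33. In IR-Ori against sham Nlrc4 ran from -0.30 to 0.10, Txnip from -0.080 to 0.57, Clic4 from -0.24 to 0.019 and Txnrd1 from -0.21 to 0.043.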
